A study of Mus musculus with 12 samples.

Results

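The diet dependence of the cold response of brown fat was taken from all 12 of the 12 RNA-seq libraries of the series, as the difference between 2 differences. For each gene the log2 change from 22 °C to 4 °C on control diet (NCD) was subtracted from the same change on high-fat diet (HFD). This value is called the interaction here. A negative interaction means that the cold change was more negative, or less positive, on HFD. The design had 4 groups with 3 libraries each: NCD at 22 °C, NCD at 4 °C, HFD at 22 °C and HFD at 4 °C. All mice were wild type C57BL/6N, had chow (Ssniff V1554) until 8 weeks of age and were 20 weeks old at sampling. For 12 weeks the HFD groups ate a different diet (Ssniff D12492 (I) mod.), and the cold groups spent 24 h at 4 °C. The tissue was named iBAT, which the study's text spells out as interscapular brown adipose tissue and the series text as inguinal. Sex, pooling of animals and the number of mice behind a library were not given in the sources used here, so the errors and p-values describe the spread between libraries.

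Brown adipocytes burn fatty acids and glucose in mitochondria that Ucp1 uncouples, so that respiration yields heat. Noradrenaline from sympathetic nerves starts this programme in the cold through beta-adrenergic receptors and cAMP, with lipolysis and the synthesis of new fatty acids running side by side. Brown fat of obese mice is known for larger lipid droplets.

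The tissue markers were present, with all 8 brown adipocyte markers counted and Ucp1 between 3789 and 18810 CPM in every library. CPM are a gene's counts scaled to a common library size, with TMM normalization. Depth ran from 15136861 to 46740702 counts per library. Skeletal muscle RNA differed widely between libraries of one group. The summed level of 20 muscle markers was 6082, 40195 and 7727 CPM on NCD at 22 °C, 3660, 23380 and 2478 on NCD at 4 °C, 5209, 4821 and 67350 on HFD at 22 °C and 1421, 1765 and 12044 on HFD at 4 °C. Replicates 1 and 2 of each group were labelled batch 1 and replicate 3 batch 2, and some values from the 8 libraries of batch 1 alone are given beside those of all libraries. No label pairs libraries of the same replicate number across the temperatures.

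Of 16737 genes tested, none passed an adjusted p of 0.05 for the interaction in edgeR's quasi-likelihood test (0% called), and the smallest adjusted p was 0.0566. At an unadjusted p under 0.05 there were 1091 genes, 513 with a more positive cold change on HFD (3.07% of those tested) and 578 with a more negative one (3.45%). The DESeq2 likelihood ratio test called 64 of the 11762 genes to which it gave an adjusted p (0.544%), 33 more positive and 31 more negative on HFD. Single genes are therefore described by their values and not called changed by the interaction, while cold changes within a diet are called where their own adjusted p passed. Among the 1091 genes, 356 (32.6%) were higher in the cold on NCD and lower on HFD, against 15.6% of all genes, and 304 (27.9%) were lower on NCD and higher on HFD, against 12.9% of all genes. The median interaction over all genes was -0.03, and 7660 of them (45.8%) had a positive interaction, which is the baseline for the counts of signs in the lists. For counts of list members at an unadjusted p under 0.05, the baselines are 3.07% positive and 3.45% negative. Within a diet, cold passed an adjusted p of 0.05 on NCD for 4.74% of genes with a rise and 2.68% with a fall, and on HFD for 6.90% and 4.57%.

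The gene functions fell on both sides of this median. Genes of fatty acid oxidation, branched-chain amino acid breakdown, the tricarboxylic acid cycle, the respiratory chain, glycolysis and thermogenesis had negative medians, from -0.40 to -0.25. Genes of the unfolded protein and integrated stress response, the lysosome and the cytosolic ribosome had positive medians of 0.21, 0.21 and 0.16. Medians of cell cycle genes, collagens and macrophage markers were also positive over the 12 libraries, but close to the median of all genes in batch 1 alone.

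Single libraries moved several list medians by over 1.5 times. Without HFD replicate 1 at 4 °C the median was -0.23 for fatty acid oxidation, -0.23 for branched-chain amino acid breakdown, -0.14 for glucose use, -0.15 for the respiratory chain, -0.03 for the mitochondrial ribosome, -0.06 for mitochondrial import and -0.01 for fatty acid synthesis, all still negative. Without HFD replicate 2 at 4 °C it was -0.47 for glucose use and -0.35 for fatty acid synthesis. The thermogenic median was -0.39 without HFD replicate 3 at 22 °C, the triglyceride median -0.11 without HFD replicate 1 at 22 °C and -0.35 in batch 1, and the uptake median -0.10 without HFD replicate 2 at 22 °C. The stress response median was 0.33 without NCD replicate 2 at 4 °C.

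**Figure D1:**
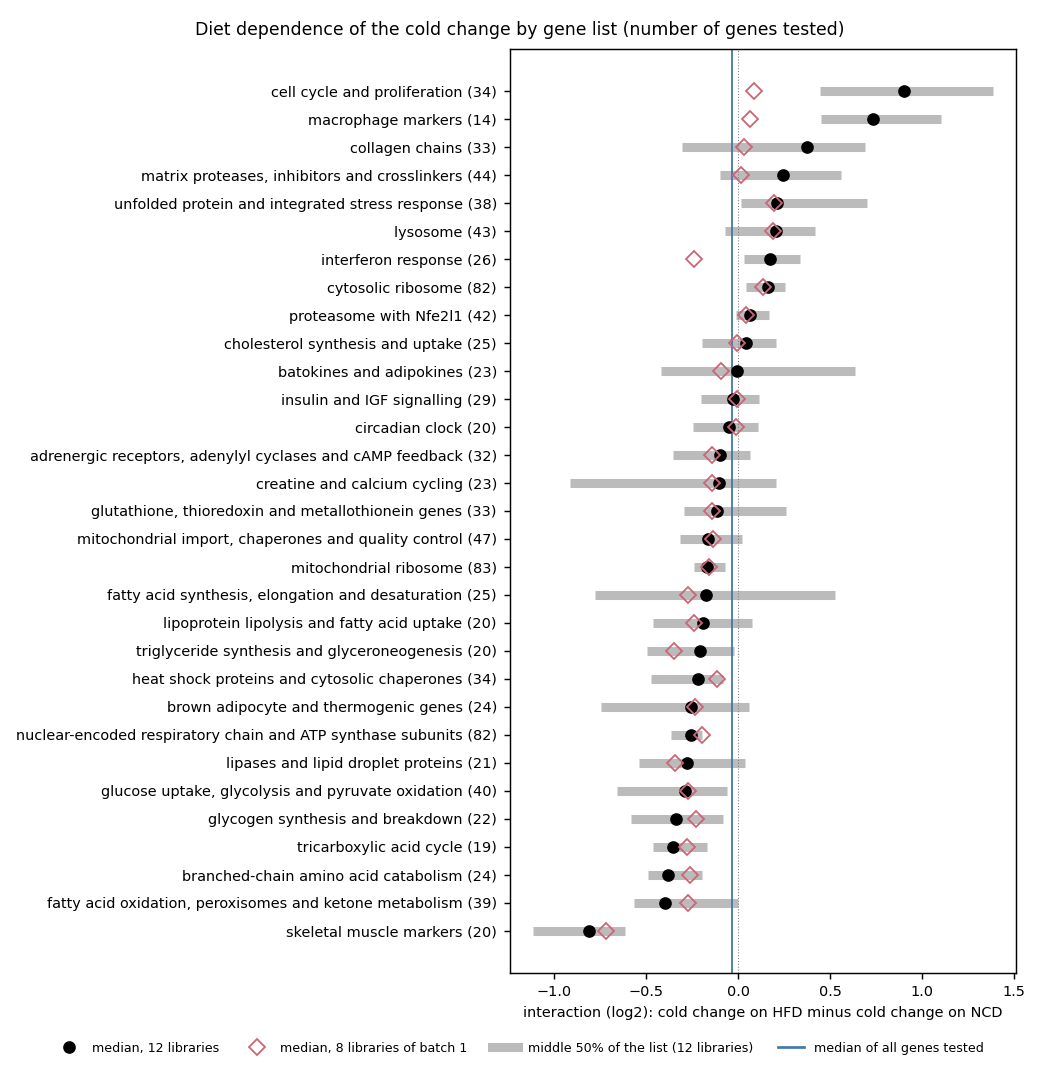
Median interaction of each gene list (x axis, log2, cold change on HFD minus cold change on NCD), with the number of genes tested in brackets. Filled circles are medians over 12 libraries, open diamonds those of the 8 libraries of batch 1, grey bars the middle 50% of a list, the blue line the median of all genes and the dotted line 0. The lists of fatty acid oxidation, amino acid breakdown, respiration, glycolysis and thermogenesis lie left of the blue line in both sets of libraries, whereas the cell cycle list moved from 0.90 to 0.09 and the macrophage markers from 0.73 to 0.06 in batch 1.

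The genes with the lowest interaction p on the negative side were led by the enzymes that turn citrate into fatty acids, and by a sugar transporter. On HFD each of them fell in the cold (adjusted p at most 0.000489 for Acly, Acaca, Fasn and Slc2a5), whereas on NCD only the transporter Slc2a5 passed the test, with a cold change of -1.29 (adjusted p = 0.04503). Acly had 10380, 7371 and 8845 CPM on NCD at 22 °C and 8264, 4534 and 7352 at 4 °C, against 5452, 2936 and 2964 on HFD at 22 °C and 234, 474 and 298 at 4 °C. Acly, ATP citrate lyase (chr11:100476353-100528000, minus strand, GRCm38), makes the cytosolic acetyl-CoA from which fatty acids are built. The 3 HFD libraries at 4 °C lay below all others, and those on NCD overlapped between the temperatures. Its cold change was -0.40 on NCD (adjusted p = 0.542) and -3.496 on HFD (adjusted p = 0.000354), an interaction of -3.096 ± 0.47 (SE; adjusted p = 0.0979). In the DESeq2 likelihood ratio test the adjusted p was 1.08e-08, and over the 23 alternatives it ran from 1.08e-08 to 0.999.

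Acaca had 12660, 9518 and 10880 CPM on NCD at 22 °C and 8530, 5626 and 6883 at 4 °C, against 6880, 4544 and 4397 on HFD at 22 °C and 642, 1047 and 648 at 4 °C. Acaca, acetyl-CoA carboxylase (chr11:84129672-84401651, plus strand), takes the next step to malonyl-CoA. No pair of groups overlapped except NCD at 4 °C and HFD at 22 °C, and its interaction was -2.11 ± 0.35 (adjusted p = 0.1603). Fasn had 58380, 54550 and 61530 CPM on NCD at 22 °C and 44070, 38320 and 45030 at 4 °C, against 37250, 25230 and 24300 on HFD at 22 °C and 3002, 6152 and 2595 at 4 °C. Fasn, fatty acid synthase (chr11:120805846-120824547, minus strand), was lower at 4 °C in all 3 libraries on both diets, and the HFD libraries at 4 °C were the lowest of all. Its interaction was -2.43 ± 0.42 (adjusted p = 0.166), with a cold change of -0.45 on NCD and -2.88 on HFD (adjusted p = 0.000489).

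Slc2a5 had 84.5, 60.04 and 71.8 CPM on NCD at 22 °C and 36.4, 13.9 and 37.8 at 4 °C, against 38.6, 23.5 and 18.5 on HFD at 22 °C and 0.585, 0.749 and 0.629 at 4 °C. Slc2a5 is the fructose transporter GLUT5 (chr4:150119283-150144169, plus strand). Every HFD library at 4 °C stood below 1 CPM, with 13, 17 and 27 counts, and below all others. Its interaction was -4.06 ± 0.55 (adjusted p = 0.0646), and it passed at an adjusted p of 0.0412 with a replicate block within diet, one of 6 alternatives in which it passed out of 23 with adjusted p from 3.22e-10 to 0.8. Atp4b, a subunit of the gastric proton pump (chr8:13386205-13396825, minus strand), was also lowest in the HFD libraries at 4 °C. Its level was lower than that of Slc2a5, and on NCD its libraries overlapped between the temperatures. Atp4b had 11.4, 6.74 and 9.53 CPM on NCD at 22 °C and 7.97, 4.53 and 8.64 at 4 °C, against 5.09, 3.398 and 2.65 on HFD at 22 °C and 0.135, 0.176 and 0.1398 at 4 °C. The HFD libraries at 4 °C rested on 3, 4 and 6 counts, so the size of the fold is uncertain. Atp4b had the smallest adjusted p of all genes (0.0566, interaction -4.202 ± 0.50), and with the replicate block within diet the adjusted p was 0.0194, within a range of 5.93e-09 to 0.691 over the alternatives. A transcript annotated on the opposite strand, Gm45410, overlaps it, and whether the counting used strand was not given in the sources used here.

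Slc15a5, a solute carrier, had 3.09, 1.62 and 2.74 CPM on HFD at 22 °C and 0.3601, 0.264 and 0.117 at 4 °C, and between 2.94 and 4.01 CPM in the 6 NCD libraries. Its interaction was -3.24 ± 0.49 (adjusted p = 0.0979). Ttc25 had 35.8, 53.1 and 44.7 CPM on NCD at 22 °C and 101, 42.7 and 174 at 4 °C, against 20.3, 16.6 and 8.95 on HFD at 22 °C and 1.67, 2.86 and 2.05 at 4 °C. Ttc25, a ciliary dynein docking factor, lies 17606 bases from Acly and on the other strand, and its interaction was -4.04 ± 0.65 (adjusted p = 0.1303). Both neighbours were lowest in the HFD libraries at 4 °C, while the NCD libraries at 4 °C ranged widely for Ttc25.

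**Figure D2:**
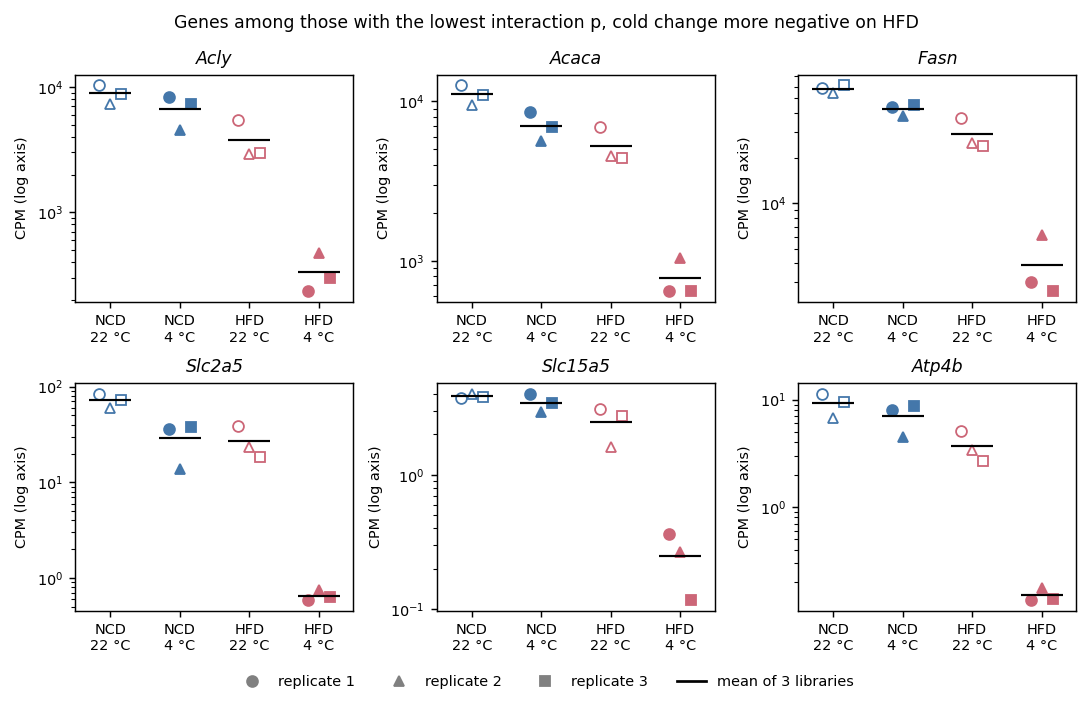
CPM on a log axis in each of the 12 libraries for Acly, Acaca, Fasn, Slc2a5, Slc15a5 and Atp4b. Marker shape gives the replicate number, filled markers are 4 °C, blue is NCD and red HFD, and lines are means of 3 libraries. In all 6 genes the 3 HFD libraries at 4 °C lie below the other 9, for Acly at 234 to 474 CPM.

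Of the 25 genes of fatty acid synthesis, elongation and desaturation, 8 had an unadjusted p under 0.05 with a more negative cold change on HFD and 3 with a more positive one. The list median was -0.17, with a median cold change of -0.40 on NCD and -0.78 on HFD, and over the alternatives it ran from -0.35 to -0.01. Beside the 3 enzymes above, the negative side held the lipogenic regulators Thrsp (-1.69 ± 0.496) and Mlxipl, which encodes ChREBP (-0.67 ± 0.22), the acetoacetyl-CoA synthetase Aacs (-1.33 ± 0.46), the mitochondrial citrate carrier Slc25a1 (-0.78 ± 0.301) and the malic enzyme Me1 (-0.62 ± 0.26). Their adjusted p ran from 0.591 to 0.742. The positive side held the delta-5 desaturase Fads1 (1.07 ± 0.26), the delta-6 desaturase Fads2 (0.61 ± 0.25) and Scd3 (4.701 ± 1.303). Fads1 had 25.5, 19.99 and 18.9 CPM on NCD at 22 °C and 15.1, 11.1 and 15.6 at 4 °C, against 14.4, 11.2 and 11.5 on HFD at 22 °C and 19.4, 13.6 and 17.5 at 4 °C. Fads1 was lower in the cold in all NCD libraries and higher on HFD for each replicate number. Scd3 is close in sequence to the very abundant Scd1, whose own interaction was -0.11, so its estimated counts are uncertain. Srebf1, the sterol-regulated activator of lipogenesis, had an interaction of 0.75 ± 0.52 (unadjusted p = 0.172), and the elongase Elovl3 one of 0.08 ± 0.34 (unadjusted p = 0.825), which changed sign when single libraries were left out.

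The 25 genes of cholesterol synthesis and uptake had a median interaction of 0.04, and 1 had an unadjusted p under 0.05. That gene was Sqle, squalene epoxidase, with 44.3, 45.7 and 44.6 CPM on NCD at 22 °C, 71.4, 55.9 and 71.6 on NCD at 4 °C, 15.4, 9.72 and 8.33 on HFD at 22 °C and 37.1, 31.4 and 27.4 on HFD at 4 °C. It was higher in the cold on both diets without overlap, and the interaction was 0.97 ± 0.29 (adjusted p = 0.591).

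Of the 24 thermogenic genes, 8 rose in the cold on NCD and 6 on HFD, against 4.74% and 6.90% of all genes, and none fell on either diet. Ucp1 had 4804, 3789 and 4016 CPM on NCD at 22 °C and 18810, 15320 and 14940 at 4 °C, against 7966, 7105 and 5994 on HFD at 22 °C and 11620, 15190 and 13150 at 4 °C. Ucp1, the uncoupling protein of brown fat (chr8:83290352-83298452, plus strand), was higher at 4 °C than at 22 °C without overlap on either diet. Its cold change was 1.96 on NCD (adjusted p = 0.000274) and 0.92 on HFD (adjusted p = 0.00656). The interaction was -1.04 ± 0.24 (adjusted p = 0.475), and it stayed between -1.16 and -0.89 over the alternatives. At 22 °C the HFD libraries all stood above those on NCD (log2 difference 0.74), and at 4 °C the difference was -0.30 with overlapping libraries.

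For the interaction, 6 thermogenic genes had an unadjusted p under 0.05, all with a more negative cold change on HFD, and the list median was -0.25 (0.53 on NCD and 0.12 on HFD). Acot11 had 1544, 1359 and 1434 CPM on NCD at 22 °C and 2358, 1877 and 2261 at 4 °C, against 1467, 1154 and 939 on HFD at 22 °C and 636, 1019 and 696 at 4 °C. Acot11, an acyl-CoA thioesterase, was higher in the cold on NCD without overlap and lower on HFD with overlap, neither of which passed the test within its diet, with an interaction of -1.18 ± 0.28 (adjusted p = 0.489). The glycerol kinase Gk rose on both diets, by 2.64 on NCD and 1.98 on HFD (interaction -0.67 ± 0.24, adjusted p = 0.689). The muscle-type cytochrome oxidase subunits Cox8b (-0.72 ± 0.30) and Cox7a1 (-0.598 ± 0.25) and S100b (-1.06 ± 0.34) completed these members. Dio2, the deiodinase that activates thyroid hormone, had an interaction of -0.23 ± 0.38 (unadjusted p = 0.553) and Cidea, a lipid droplet protein of brown fat, one of 0.07 ± 0.21 (unadjusted p = 0.744). Both of these changed sign when single libraries were left out. Ppargc1a, the coactivator of mitochondrial biogenesis, had an interaction of -0.99 ± 0.67 (unadjusted p = 0.167), with NCD libraries at 4 °C from 74.8 to 475 CPM.

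Upstream of these genes, 3 of 32 adrenergic and cAMP genes (9.4%) had an unadjusted p under 0.05, none of them positive, against 3.45% of all genes. The list median was -0.10. Adcy10 had 31.7, 37.6 and 34.5 CPM on NCD at 22 °C and 69.4, 46.4 and 55.01 at 4 °C, against 26.4, 20.4 and 13.8 on HFD at 22 °C and 5.76, 11.7 and 8.44 at 4 °C. Adcy10, the soluble adenylyl cyclase, was higher in the cold in all NCD libraries and lower in all HFD libraries, with an interaction of -1.94 ± 0.38 (adjusted p = 0.298). Gnas, the stimulatory G protein subunit, had an interaction of -0.69 ± 0.23 (adjusted p = 0.648). Adrb3, the main beta-adrenergic receptor of fat, had one of -0.95 ± 0.45 (unadjusted p = 0.0575), and Adcy3 rose on both diets (2.67 on NCD and 2.797 on HFD, interaction 0.13 ± 0.25).

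**Figure D3:**
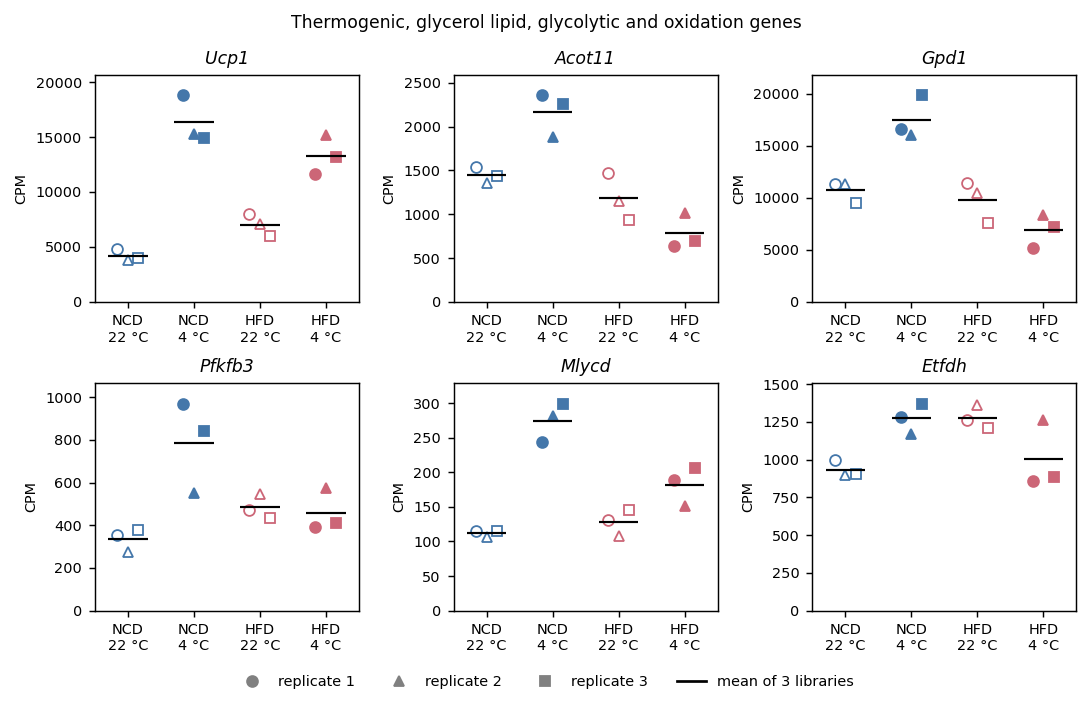
CPM on a linear axis from 0 in each of the 12 libraries for Ucp1, Acot11, Gpd1, Pfkfb3, Mlycd and Etfdh, with markers and colours as in the log plot of the lipogenic genes. Ucp1 and Mlycd were higher in the cold on both diets, and Gpd1 reached 16600, 16020 and 19840 CPM on NCD at 4 °C but 5192, 8346 and 7204 on HFD at 4 °C.

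Genes that make glycerol phosphate and triglyceride had a list median of -0.21, and 5 of 20 (25%, against 3.45% of all genes) had an unadjusted p under 0.05, all negative. Gpd1 had 11310, 11340 and 9472 CPM on NCD at 22 °C and 16600, 16020 and 19840 at 4 °C, against 11430, 10470 and 7536 on HFD at 22 °C and 5192, 8346 and 7204 at 4 °C. Gpd1, which makes glycerol-3-phosphate from a glycolytic intermediate, was higher at 4 °C on NCD without overlap, while on HFD the temperatures overlapped. Its interaction was -1.21 ± 0.29 (adjusted p = 0.489). Pck1, the enzyme of glyceroneogenesis, had an interaction of -1.16 ± 0.34 (adjusted p = 0.591), and Gpam, the first acyltransferase, one of -0.73 ± 0.24 (adjusted p = 0.642) with a rise in the cold on both diets. Among 21 lipase and droplet genes the median was -0.28 and 4 members had an unadjusted p under 0.05, all negative, including the monoglyceride lipase Mgll (-0.63 ± 0.19) and the hormone-sensitive lipase Lipe (-0.54 ± 0.23). Ces1d and Ces1f, also among them, are near copies of each other and their estimates are uncertain.

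Fatty acid oxidation, with peroxisomal and ketone genes, had a median of -0.40 (-0.27 in batch 1), with a median cold change of 0.30 on NCD and -0.14 on HFD. Of 39 genes, 12 had an unadjusted p under 0.05 on the negative side against 2 on the positive side, and in 20 the cold change of all 3 replicate numbers was lower on HFD than any on NCD, a pattern of 8.22% of all genes. Mlycd had 115, 106 and 115 CPM on NCD at 22 °C and 244, 281 and 299 at 4 °C, against 130, 107 and 145 on HFD at 22 °C and 189, 151 and 206 at 4 °C. Mlycd, which removes the malonyl-CoA that blocks fatty acid entry into mitochondria, rose on both diets, by 1.29 on NCD and 0.51 on HFD (interaction -0.78 ± 0.202, adjusted p = 0.525). Etfdh had 997, 900 and 902 CPM on NCD at 22 °C and 1283, 1166 and 1368 at 4 °C, against 1260, 1359 and 1208 on HFD at 22 °C and 860, 1259 and 884 at 4 °C. Etfdh, which passes electrons from fatty acid oxidation to the respiratory chain, was higher in the cold on NCD without overlap and lower on HFD for each replicate number with overlap, with an interaction of -0.797 ± 0.21 (adjusted p = 0.525). Its partner Etfa (-0.74 ± 0.22), the carnitine palmitoyltransferase Cpt1b (-0.59 ± 0.19), Decr1 (-0.62 ± 0.19), Hadh (-0.74 ± 0.28), Acadm (-0.64 ± 0.26) and Acaa2 (-0.63 ± 0.24) were also on this side.

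The 2 positive members at that threshold were Acot2 and Acaa1b. Acot2 had 110, 103 and 96.4 CPM on NCD at 22 °C and 149, 169 and 174 at 4 °C, against 123, 132 and 137 on HFD at 22 °C and 651, 302 and 405 at 4 °C. Acot2, a mitochondrial acyl-CoA thioesterase, rose on HFD by 1.79 (adjusted p = 0.00106), with the HFD libraries at 4 °C above all others and an interaction of 1.12 ± 0.31 (adjusted p = 0.525). It is close in sequence to Acot1. Acaa1b, a peroxisomal thiolase, had an interaction of 1.48 ± 0.604 (adjusted p = 0.7397). Uptake genes had a list median of -0.19, with 5 of 20 on the negative side at an unadjusted p under 0.05, among them the acyl-CoA synthetase Acsl1 (-0.49 ± 0.17) and the fatty acid binding protein Fabp3 (-0.69 ± 0.24), against Acsl4 (0.704 ± 0.26) on the positive side.

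Glucose use had a median of -0.29, and 12 of 40 genes (30%, against 3.45% of all genes) had an unadjusted p under 0.05, all negative. Pdk1 had 306, 263 and 262 CPM on NCD at 22 °C and 248, 186 and 263 at 4 °C, against 212, 172 and 162 on HFD at 22 °C and 54.8, 83.8 and 66.1 at 4 °C. Pdk1, which switches off pyruvate oxidation, fell in the cold on HFD by 1.41 on the log2 scale (adjusted p = 0.00112), with HFD libraries at 4 °C below all others and an interaction of -1.16 ± 0.25 (adjusted p = 0.397). Pfkfb3 had 352, 275 and 377 CPM on NCD at 22 °C and 968, 549 and 840 at 4 °C, against 471, 544 and 435 on HFD at 22 °C and 393, 573 and 409 at 4 °C. Pfkfb3, which makes the activator of phosphofructokinase, rose in the cold on NCD by 1.23 (adjusted p = 0.00851), while on HFD the temperatures overlapped, with an interaction of -1.31 ± 0.31 (adjusted p = 0.475). The noncoding Gm10851 lies within Pfkfb3 on the other strand and had an interaction of -1.11 ± 0.23, and without strand in the counts reads of such a pair cannot be told apart. Enolase Eno1 (-0.95 ± 0.28), lactate dehydrogenase Ldha (-0.72 ± 0.26), hexokinase Hk2 (-0.77 ± 0.29), the pentose phosphate enzymes Tkt (-1.22 ± 0.37), Taldo1 (-0.87 ± 0.27) and Pgd (-0.63 ± 0.27), and the pyruvate dehydrogenase subunits Pdhb (-0.75 ± 0.25), Pdha1 (-0.58 ± 0.23) and Dlat (-0.52 ± 0.23) had the same sign. Tkt fell in the cold on HFD by 1.68 on the log2 scale (adjusted p = 0.00341).

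Glycogen genes had a median of -0.33, which was -0.10 without HFD replicate 3 at 22 °C, the library with the highest muscle marker sum. Of 22 genes, 5 had a positive interaction, and at an unadjusted p under 0.05 there were 2 negative members and 1 positive one. The latter was Stbd1, a glycogen-binding protein, with 9.02, 11.4 and 8.78 CPM on HFD at 22 °C and 27.2, 15.5 and 24.8 at 4 °C, and 6.36 to 9.64 CPM in the 6 NCD libraries. Its interaction was 1.33 ± 0.32 (adjusted p = 0.493).

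Branched-chain amino acid breakdown had a median of -0.38, with 21 of 24 interactions negative, 6 of them at an unadjusted p under 0.05. Bcat2 had 42.9, 40.8 and 40.6 CPM on NCD at 22 °C and 48.96, 41.5 and 45.7 at 4 °C, against 46.5, 45.7 and 51.2 on HFD at 22 °C and 31.9, 38.2 and 30.6 at 4 °C. Bcat2, the mitochondrial aminotransferase that opens this pathway, fell on HFD by 0.51 on the log2 scale (adjusted p = 0.0116) with no overlap between the temperatures, and its libraries on NCD overlapped. Its interaction was -0.65 ± 0.15 (adjusted p = 0.475). Mccc2, of leucine breakdown, fell on HFD by 0.83 on the log2 scale (adjusted p = 0.00674, interaction -0.798 ± 0.21). The 1 positive member at that threshold was the amino acid transporter Slc7a5, with 11.6, 1.89 and 2.98 CPM on HFD at 4 °C and 0.322 to 1.06 CPM in the other 9 libraries (interaction 3.25 ± 0.97, adjusted p = 0.591), and the interaction was 2.14 without HFD replicate 1 at 4 °C.

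In the tricarboxylic acid cycle 16 of 19 interactions were negative, with a median of -0.35 and 4 members at an unadjusted p under 0.05: Idh2 (-0.61 ± 0.16), Sucla2 (-0.65 ± 0.22), Suclg2 (-0.52 ± 0.19) and Suclg1 (-0.73 ± 0.27). Idh2 had 303, 285 and 267 CPM on NCD at 22 °C and 245, 269 and 286 at 4 °C, against 565, 651 and 572 on HFD at 22 °C and 360, 412 and 326 at 4 °C. Idh2, the mitochondrial isocitrate dehydrogenase, stood higher on HFD than on NCD at 22 °C in all libraries and fell in the cold on HFD by 0.70 on the log2 scale (adjusted p = 0.00407).

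Of 82 nuclear-encoded subunits of the respiratory chain and ATP synthase, 79 had a negative interaction, with a median of -0.26 that ran from -0.38 to -0.15 over the alternatives. The median cold change was 0.04 on NCD and -0.21 on HFD. Only 7 subunits had an unadjusted p under 0.05, among them Uqcrq (-0.66 ± 0.25) and Uqcrc1 (-0.48 ± 0.204), but in 30 the cold change was lower in all 3 replicate numbers on HFD than in any on NCD, against 8.22% of all genes. Uqcrq had 528, 429 and 446 CPM on NCD at 22 °C and 572, 392 and 481 at 4 °C, against 496, 478 and 446 on HFD at 22 °C and 259, 392 and 273 at 4 °C. Uqcrq, a subunit of complex III, was lower on HFD at 4 °C than at 22 °C without overlap, and the NCD libraries overlapped. Such subunits are co-regulated and share the same 12 libraries, so their common sign is not 82 separate observations.

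Of the mitochondrial ribosome, 75 of 83 genes had a negative interaction, with a median of -0.17 and 5 members at an unadjusted p under 0.05 (6.02%, against 3.45% of all genes), such as Mrps25 (-0.53 ± 0.16) and Mrps9 (-0.497 ± 0.15). Their median cold change was 0.20 on NCD and 0.00 on HFD. For mitochondrial import and quality control genes the median was -0.16, with 4 of 47 (8.51%, against 3.45% of all genes) at an unadjusted p under 0.05, all negative, such as the kinase Pink1 (-0.53 ± 0.17, and -0.31 in batch 1).

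**Figure D4:**
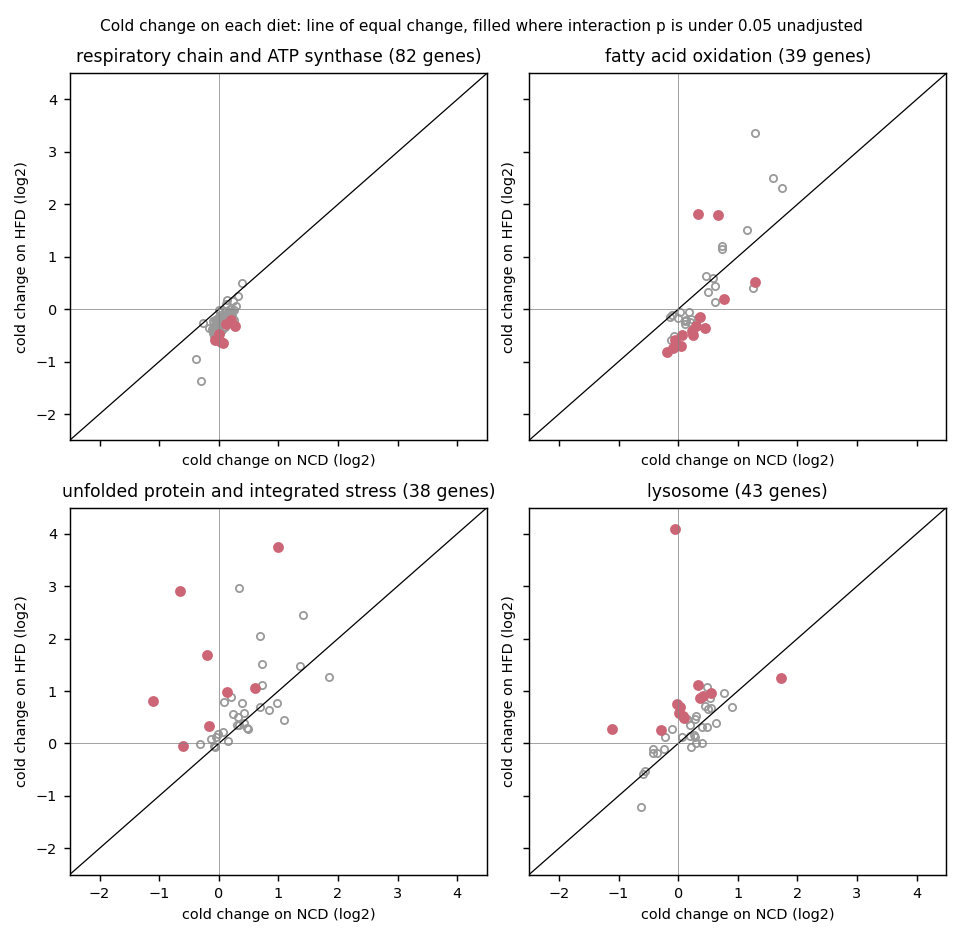
Cold change on NCD (x axis, log2) against cold change on HFD (y axis, log2) for each tested gene of 4 lists, with the line of equal change. Filled red points had an interaction p under 0.05, unadjusted. The 82 respiratory chain genes lie mostly just below the line (79 with a negative interaction), and 30 of 38 stress response genes and 31 of 43 lysosomal genes had a positive interaction.

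On the positive side, the unfolded protein and integrated stress response genes had a median of 0.21, with 30 of 38 interactions positive and 8 members at an unadjusted p under 0.05, none negative. The median cold change was 0.33 on NCD and 0.62 on HFD. Of the first members, 3 make serine and one-carbon units. Psat1 had 4.48, 5.58 and 6.69 CPM on NCD at 22 °C and 4.13, 3.001 and 3.65 at 4 °C, against 4.703, 4.71 and 4.8 on HFD at 22 °C and 63.7, 7.57 and 35.2 at 4 °C. Psat1, phosphoserine aminotransferase, rose in the cold on HFD by 2.903 (adjusted p = 0.00775), most in replicates 1 and 3 and least in replicate 2, and its interaction was 3.55 ± 0.77 (adjusted p = 0.397). Mthfd2 had 5.16, 3.43 and 2.596 CPM on NCD at 22 °C and 9.75, 5.53 and 6.82 at 4 °C, against 2.19, 3.45 and 2.32 on HFD at 22 °C and 63.6, 11.8 and 31 at 4 °C. Mthfd2, of the mitochondrial folate pathway, rose on HFD by 3.74 (adjusted p = 0.00198), with an interaction of 2.74 ± 0.72 (adjusted p = 0.525). Phgdh, which starts serine synthesis, had an interaction of 1.92 ± 0.55 (adjusted p = 0.577), and leaving out HFD replicate 1 at 4 °C brought it to 1.33. Asparagine synthetase Asns (0.83 ± 0.32), Trib3 (1.88 ± 0.81), Shmt2 (0.50 ± 0.23), the secreted chaperone Manf (0.43 ± 0.19) and Xbp1 (0.55 ± 0.25) made up the rest.

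Members of this response carry the element TTGCATCA, to which Atf4 dimers bind, in the promoter of some of its targets. A RefSeq promoter window (GRCm38.p6, 250 bases before to 50 after the start site) was matched for 35 of the 38 genes. In 5 of them, 14.3%, the element stood on either strand, against 0.722% of the promoters of 10391 coding genes tested. These 5 are shown as 30 bases on the gene's strand, with the element in capitals, which reads TGATGCAA where it lies on the other strand.
Atf3, chr1:191183425-191183454, minus strand: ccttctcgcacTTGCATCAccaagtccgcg
Chac1, chr2:119351038-119351067, plus strand: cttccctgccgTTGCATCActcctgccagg
Fgf21, chr7:45615611-45615640, minus strand: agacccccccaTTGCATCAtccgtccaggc
Herpud1, chr8:94386306-94386335, plus strand: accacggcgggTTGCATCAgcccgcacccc
Slc7a11, chr3:50443661-50443690, minus strand: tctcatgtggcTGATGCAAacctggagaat
Slc7a11, chr3:50443642-50443671, minus strand: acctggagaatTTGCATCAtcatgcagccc
None of these 5 was among the members with an unadjusted p under 0.05. The interactions were 2.62 ± 1.25 for the hormone Fgf21 (unadjusted p = 0.06003), 1.35 ± 0.95 for the cystine transporter Slc7a11, -0.57 ± 0.94 for Atf3, -0.21 ± 0.303 for Herpud1 and -0.64 ± 1.49 for Chac1. The element was not particular to this list. It stood in 2 of 14 matched promoters of the fatty acid uptake genes (14.3%), whose median interaction was -0.19. Among batokines and adipokines (median -0.01) it stood in 2 of 22 (9.09%), and most other lists held it in no promoter. A match of letters is a description and not a site of binding.

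Lysosomal genes had a median of 0.21, and 12 of 43 had an unadjusted p under 0.05 on the positive side, against 3.07% of all genes, with 1 on the negative side. In 12 the cold change was higher in all 3 replicate numbers on HFD than in any on NCD, against 6.79% of all genes. Gpnmb had 2.74, 4.07 and 3.33 CPM on NCD at 22 °C and 2.64, 4.88 and 2.44 at 4 °C, against 3.67, 5.49 and 6.75 on HFD at 22 °C and 173, 23.2 and 79.1 at 4 °C. Gpnmb, a membrane glycoprotein of lysosomes that lipid-laden macrophages make in large amounts, rose on HFD by 4.09 (adjusted p = 0.00229), and all 3 HFD libraries at 4 °C stood above the other 9. Its interaction was 4.14 ± 0.83 (adjusted p = 0.298). The acid hydrolases and the proton pump had smaller interactions. Ctsa had 64.6, 55.97 and 58.4 CPM on NCD at 22 °C and 51.1, 66.3 and 59.9 at 4 °C, against 52.2, 56.3 and 55.7 on HFD at 22 °C and 110, 73.4 and 94.8 at 4 °C. Ctsa, cathepsin A, rose on HFD by 0.76 (adjusted p = 0.00758), with an interaction of 0.77 ± 0.203 (adjusted p = 0.525). Ctsl (0.66 ± 0.22) and Hexa (0.39 ± 0.17), and the proton pump subunits Atp6v1d (0.49 ± 0.15), Atp6v0a1 (0.56 ± 0.19), Atp6v0c (0.78 ± 0.304), Atp6v1a (0.48 ± 0.19) and Atp6v0b (0.41 ± 0.17) had the same sign. Ctsz (-0.46 ± 0.21) was the negative member.

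The E-box CACGTG, the core of the element through which Tfeb acts on lysosomal genes, was found in 11 of the 31 lysosomal promoters matched (35.5%), against 11.5% of all 10391 promoters. Of the positive members above, Atp6v0b, Atp6v1a, Ctsa and Ctsl held it, and their windows of 30 bases follow on the gene's strand with the E-box in capitals.
Atp6v0b, chr4:117887348-117887377, minus strand: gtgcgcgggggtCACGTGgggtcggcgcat
Atp6v0b, chr4:117887330-117887359, minus strand: gggtcggcgcatCACGTGcgccggtcaggt
Atp6v1a, chr16:44139373-44139402, minus strand: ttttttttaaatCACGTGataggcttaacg
Ctsa, chr2:164833749-164833778, plus strand: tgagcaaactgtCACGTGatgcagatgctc
Ctsa, chr2:164833766-164833795, plus strand: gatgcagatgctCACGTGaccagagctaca
Ctsl, chr13:64370739-64370768, minus strand: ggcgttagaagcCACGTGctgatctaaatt
The other holders were Atp6v0d1, Atp6v0e, Ctsd, Ctsf, Glb1, Lamp1 and Mcoln1. Among these, Lamp1 had the letters at 4 places and an interaction of 0.21 ± 0.204 (unadjusted p = 0.335), and Ctsd had them at 2 places (-0.06 ± 0.18, unadjusted p = 0.729). The E-box also stood in 3 of 13 triglyceride promoters (23.1%, list median -0.21) and 5 of 17 circadian promoters (29.4%, median -0.05). It stood in 4 of 18 cholesterol promoters (22.2%, median 0.04) and in 0 of 28 collagen promoters (median 0.38). Whether the E-box went with the interaction was not tested.

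Lgals3 had 10.4, 8.14 and 8.45 CPM on NCD at 22 °C and 7.45, 6.003 and 6.08 at 4 °C, against 11.8, 9.36 and 6.75 on HFD at 22 °C and 64.2, 17.96 and 77.01 at 4 °C. Lgals3, galectin 3, rose on HFD by 2.52 (adjusted p = 0.00451) and was higher in each HFD library at 4 °C than in any other, with an interaction of 2.99 ± 0.59 (adjusted p = 0.298). Mal had 2.49, 2.85 and 1.86 CPM on NCD at 22 °C and 2.64, 2.83 and 2.296 at 4 °C, against 2.71, 2.77 and 3.53 on HFD at 22 °C and 26.1, 8.54 and 29.8 at 4 °C. Mal, a proteolipid of membrane sorting, followed the same libraries, with an interaction of 2.72 ± 0.54 (adjusted p = 0.298). Serpina3n had 7.9, 11.9 and 12.1 CPM on NCD at 22 °C and 4.82, 5.297 and 3.74 at 4 °C, against 3.54, 3.502 and 2.65 on HFD at 22 °C and 27.96, 3.61 and 18.6 at 4 °C. Serpina3n, a secreted protease inhibitor, was lower in the cold on NCD without overlap, and on HFD it was high in replicates 1 and 3 at 4 °C and not in replicate 2. Its interaction was 3.59 ± 0.75 (adjusted p = 0.351), and 4.07 without HFD replicate 2 at 4 °C.

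**Figure D5:**
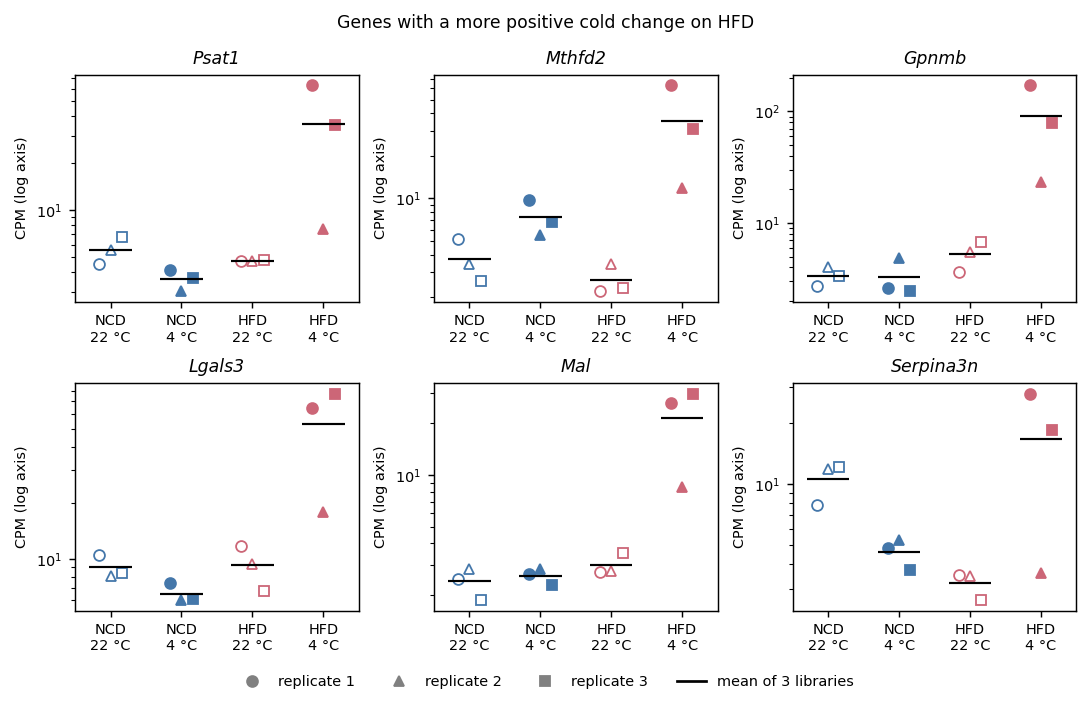
CPM on a log axis in each of the 12 libraries for Psat1, Mthfd2, Gpnmb, Lgals3, Mal and Serpina3n, with markers and colours as above. In all 6 genes replicates 1 and 3 of HFD at 4 °C are the 2 highest libraries, and replicate 2 (triangle) lies lower, for Gpnmb at 23.2 CPM against 173 and 79.1.

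Macrophage markers shared the sign of these interactions, but their levels did not follow the same libraries. All 14 tested had a positive interaction, with a median of 0.73, and 3 had an unadjusted p under 0.05: Mrc1 (1.18 ± 0.404), Itgam (1.098 ± 0.42) and Cd68 (1.55 ± 0.63). In batch 1, Mrc1 had 0.56 and Cd68 0.84, and without HFD replicate 3 at 4 °C Mrc1 had 0.73. Their summed level was 220, 177 and 186 CPM on NCD at 22 °C, 156, 179 and 133 on NCD at 4 °C, 177, 254 and 181 on HFD at 22 °C and 239, 174 and 388 on HFD at 4 °C. The high value of HFD at 4 °C came from replicate 3, and in batch 1 the median was 0.06, whereas the lysosomal median was 0.19 and Gpnmb had 4.27 there. The part of macrophages in the lysosomal and Gpnmb values was not tested, and in bulk tissue more cells of a type and more RNA per cell cannot be told apart.

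Cell cycle genes had a median of 0.90, with 31 of 34 interactions positive and 6 members at an unadjusted p under 0.05, none negative. Their summed level was 181, 166 and 190 CPM on NCD at 22 °C, 195, 195 and 201 on NCD at 4 °C, 217, 207 and 166 on HFD at 22 °C and 229, 267 and 456 on HFD at 4 °C. One library, HFD replicate 3 at 4 °C, was far above the rest, and in batch 1 the median was 0.09. The members at that threshold were Rrm1 (0.49 ± 0.17) and Rrm2 (2.07 ± 0.93) of deoxynucleotide synthesis, E2f1 (1.17 ± 0.45), Ube2c (1.404 ± 0.54), and the replication helicase subunits Mcm6 (0.91 ± 0.38) and Mcm2 (0.61 ± 0.26). In batch 1, Mcm6 had 0.43 and Ube2c 0.87, and without HFD replicate 3 at 4 °C Mcm6 had 0.49. Collagens had a median of 0.38 over 33 genes and 0.03 in batch 1, and matrix proteases and crosslinkers 0.24 and 0.02. Col5a2 had 70.2, 88.9 and 112 CPM on NCD at 22 °C and 36.1, 35.7 and 37.5 at 4 °C, against 49.99, 62.2 and 56.6 on HFD at 22 °C and 33.3, 63.4 and 70.4 at 4 °C. Col5a2, a chain of fibrillar collagen, fell in the cold on NCD by 1.31 on the log2 scale (adjusted p = 0.0101) and overlapped between the temperatures on HFD, with an interaction of 1.297 ± 0.34 (adjusted p = 0.525) that was 0.93 in batch 1. The fibrillar chain Col3a1 had 1.105 ± 0.497, Col12a1 1.46 ± 0.44 and Col20a1 -0.76 ± 0.297. In batch 1, Col3a1 had 0.33 and Col12a1 0.71, and without HFD replicate 3 at 4 °C Col3a1 had 0.53. The matrix protease Mmp3 had an interaction of 2.17 ± 0.61 (adjusted p = 0.558) and the collagenolytic cathepsin Ctsk one of 1.38 ± 0.36 (adjusted p = 0.525).

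Among antioxidant genes the list median was -0.11, but 4 of 33 (12.1%, against 3.07% of all genes) had an unadjusted p under 0.05 and all of them were positive. Srxn1 had 88.1, 72.7 and 79.7 CPM on NCD at 22 °C and 101, 106 and 121 at 4 °C, against 65.9, 68.1 and 57.5 on HFD at 22 °C and 222, 127 and 214 at 4 °C. Srxn1, sulfiredoxin, rose on HFD by 1.56 (adjusted p = 0.000972), and the HFD libraries at 4 °C were the 3 highest, with an interaction of 1.11 ± 0.26 (adjusted p = 0.475). The glutathione synthesis subunit Gclm (0.54 ± 0.17), the haem oxygenase Hmox1 (1.49 ± 0.54) and the glutathione transferase Gsta3 (1.99 ± 0.54) were the others, and Gsta3 has near copies that make its estimate uncertain.

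Secreted and growth factors gave some of the most distinct single patterns. Retn had 30.98, 43.1 and 43.6 CPM on NCD at 22 °C and 24.8, 24.9 and 28.5 at 4 °C, against 7.73, 7.42 and 8.98 on HFD at 22 °C and 18.5, 12.7 and 13.3 at 4 °C. Retn, resistin (chr8:3655770-3660110, plus strand), was lower in the cold on NCD and higher on HFD, in both cases without overlap. All 3 replicate numbers were lower on NCD and higher on HFD in 1.13% of all genes, and the reverse held in 1.34%. Its cold change was -0.59 on NCD (adjusted p = 0.0613) and 0.88 on HFD (adjusted p = 0.00982), with an interaction of 1.47 ± 0.25 (adjusted p = 0.1603). Igf1 had 29.9, 35.3 and 37.6 CPM on NCD at 22 °C and 12.5, 10.9 and 10.5 at 4 °C, against 12.2, 12.8 and 11.3 on HFD at 22 °C and 8.24, 8.89 and 15.8 at 4 °C. Igf1, insulin-like growth factor 1, fell in the cold on NCD by 1.60 on the log2 scale (adjusted p = 0.00207) to the range of the HFD libraries, which overlapped between the temperatures. Its interaction was 1.47 ± 0.31 (adjusted p = 0.339), and 0.94 in batch 1. Lcn2, lipocalin 2, had 2.93, 0.792 and 2.38 CPM on HFD at 4 °C and at most 0.814 in the other groups, so that replicate 2 stood within their range (interaction 2.14 ± 0.79, adjusted p = 0.692). The batokine Nrg4 had an interaction of -0.41 ± 0.18 (adjusted p = 0.742), and leptin, Lep, one of -0.76 ± 1.11 (unadjusted p = 0.512) that changed sign without NCD replicate 3 at 4 °C. Over the whole lists, batokines and adipokines had a median of -0.01 and insulin and IGF signalling -0.03, near the median of all genes. In the latter list Irs3, an adipocyte insulin receptor substrate, had an interaction of -1.50 ± 0.55, Tbc1d4, which controls glucose transporter traffic, -0.76 ± 0.24 (-0.50 in batch 1), and the binding protein Igfbp5 0.62 ± 0.22, all with an unadjusted p under 0.05.

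Of the creatine cycle, Ckb and Alpl rose in the cold on both diets, with the larger fitted change on HFD. Ckb had 15.99, 10.6 and 14.2 CPM on NCD at 22 °C and 34.9, 80.9 and 61.1 at 4 °C, against 30.3, 28.3 and 31.1 on HFD at 22 °C and 308, 237 and 345 at 4 °C. Ckb, the brain-type creatine kinase, rose by 2.12 on NCD (adjusted p = 0.00141) and 3.31 on HFD (adjusted p = 0.000168), without overlap on either diet, and its interaction was 1.19 ± 0.37 (adjusted p = 0.601). Alpl had 24.5, 25.9 and 21.8 CPM on NCD at 22 °C and 45.8, 64.8 and 49.4 at 4 °C, against 15.3, 11.3 and 15.6 on HFD at 22 °C and 53.7, 46.9 and 58.6 at 4 °C. Alpl, the phosphatase that hydrolyses phosphocreatine in thermogenic fat, rose by 1.15 on NCD and 1.91 on HFD, with an interaction of 0.76 ± 0.23 (adjusted p = 0.591) and HFD libraries at 22 °C below all others. The list of creatine and calcium cycling as a whole had a median of -0.11, which was 0.47 without HFD replicate 3 at 22 °C. Of its 23 genes, 16 had a negative interaction. At an unadjusted p under 0.05 there were 3 positive members and 1 negative one, so Ckb and Alpl do not stand for the list. Several of its calcium genes are muscle genes, and the muscle markers themselves had a median of -0.81, which was -2.53 without HFD replicate 3 at 4 °C and 1.07 without HFD replicate 3 at 22 °C.

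On the positive side, Mmd2 had the smallest interaction p. Mmd2 had 10.3, 7.09 and 7.05 CPM on NCD at 22 °C and 10.7, 11.6 and 8.38 at 4 °C, against 1.48, 1.62 and 1.67 on HFD at 22 °C and 15.3, 8.23 and 12.3 at 4 °C. Mmd2 (chr5:142562358-142608800, minus strand) was low only in the HFD libraries at 22 °C and rose on HFD in the cold, to values overlapping NCD, by 2.90 (adjusted p = 0.000172), with an interaction of 2.57 ± 0.34 (adjusted p = 0.0646). Kcng4 had 6.22, 4.53 and 6.54 CPM on NCD at 22 °C and 3.56, 3.24 and 3.67 at 4 °C, against 5.99, 3.82 and 3.61 on HFD at 22 °C and 7.203, 13.8 and 13.1 at 4 °C. Kcng4, a potassium channel modifier, was lower in the cold in all NCD libraries and higher on HFD for each replicate number, with an interaction of 2.08 ± 0.39 (adjusted p = 0.2505). H2-T22, a class Ib histocompatibility gene with near-identical copies, had 47.9, 57.6 and 37.3 CPM on HFD at 22 °C, 85.9, 93.5 and 112 on HFD at 4 °C and 42.3 to 55.7 in the 6 NCD libraries (interaction 1.21 ± 0.22, adjusted p = 0.2505), and Dnmt3l, a cofactor of DNA methyltransferases, had 4.502, 1.805 and 3.59 CPM on HFD at 4 °C and at most 1.24 elsewhere (interaction 3.02 ± 0.62, adjusted p = 0.339).

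Noncoding genes were tested in the same fit. Lncbate1 had 17.4, 15.4 and 15.04 CPM on NCD at 22 °C and 23.7, 27.9 and 23.7 at 4 °C, against 18.9, 16.6 and 19.7 on HFD at 22 °C and 14.8, 16.3 and 16.9 at 4 °C. Lncbate1, an lncRNA of brown fat (chr8:108553252-108584595, minus strand), rose in the cold on NCD by 0.66 (adjusted p = 0.00851) without overlap, and on HFD it was lower for each replicate number although the groups overlapped. Its interaction was -0.86 ± 0.17 (adjusted p = 0.298), and it overlaps Zfhx3 on the other strand. 2310069B03Rik had 20.4, 23.8 and 21.6 CPM on NCD at 22 °C and 60.8, 45.4 and 72.4 at 4 °C, against 30.2, 24.9 and 14.8 on HFD at 22 °C and 18.8, 14 and 10.9 at 4 °C. 2310069B03Rik rose on NCD by 1.44 (adjusted p = 0.00984) and had an interaction of -2.12 ± 0.38 (adjusted p = 0.197). Lncbate10 rose on both diets, by 3.47 on NCD and 2.56 on HFD, with an interaction of -0.91 ± 0.29 (adjusted p = 0.608), and Ctcflos likewise, by 1.61 and 0.86 (interaction -0.75 ± 0.28, adjusted p = 0.698). The gene without a symbol QNCMUSG00058145 had 0.773, 0.575 and 0.452 CPM on HFD at 22 °C and 1.22, 2.25 and 1.66 at 4 °C, and 5.78 to 8.83 on NCD (interaction 1.79 ± 0.37, adjusted p = 0.339). Gm15551 had an interaction of -0.59 ± 0.73 (unadjusted p = 0.431) and overlaps Camk2d on the other strand, whose interaction was 0.35 ± 0.24 (unadjusted p = 0.168). 2700046G09Rik was listed at 0 counts in all 3 HFD libraries at 22 °C and in 1 NCD library at 4 °C, and at 29 to 100 counts in the other 8, so no fold is given, and it lies within Sgms1 on the other strand. 4631405J19Rik, which overlaps Prdm11 on the other strand, was higher in the cold on both diets, with an interaction of 1.71 ± 0.52 (adjusted p = 0.591).

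The lists left over lay nearer to the median of all genes or held few members at the threshold. Cytosolic ribosomal proteins had a median of 0.16, with 66 of 82 positive and 5 at an unadjusted p under 0.05 (6.10%, against 3.07% of all genes). Proteasome genes had 0.06 (1 of 42), heat shock proteins -0.22 (1 of 34, negative), interferon genes 0.17 (1 of 26, negative, and a median of -0.24 in batch 1) and circadian genes -0.05 (0 of 20). The ribosomal members were Rpl23 (0.44 ± 0.16), Rps20 (0.28 ± 0.11), Rpl13a (0.32 ± 0.14), Rpl22l1 (0.54 ± 0.24) and Rps16 (1.29 ± 0.59), all positive, of a family with many processed pseudogenes that make single estimates uncertain. The small heat shock protein Hspb1 had -1.13 ± 0.51 (-0.74 without HFD replicate 2 at 22 °C), the proteasome subunit Psma5 0.495 ± 0.19 and the interferon-induced Ifi27l2a -0.61 ± 0.22. Of the cell type markers, brown adipocyte genes had -0.41 over 8 genes, neutrophil and mast cell genes 1.04 over 8, fibroblast genes 0.33 over 9, Schwann cell genes 0.24 over 8, erythroid genes 0.39 over 6, endothelial genes -0.08 over 9, pericyte genes 0.05 over 8, white adipocyte genes -0.17 over 7 and lymphocyte genes -0.40 over the 4 that were tested. The 4 lymphocyte genes summed to only 1.09 to 3.10 CPM in a library, so their median rests on very low levels. The 8 neutrophil and mast cell genes summed to 44.5 to 57.8 CPM on NCD at 22 °C and 9.53 to 15.1 at 4 °C. On HFD they summed to 14.4 to 28.0 CPM at 22 °C and 8.85 to 21.0 at 4 °C. In batch 1 the medians were 0.56 for neutrophil and mast cell genes, 0.18 for fibroblast genes, -0.23 for endothelial genes, -0.05 for pericyte genes, -0.07 for white adipocyte genes and -1.02 for lymphocyte genes. When single libraries were left out, the brown adipocyte median reached -0.14 (without NCD replicate 2 at 4 °C), the lymphocyte median 0.21 (without NCD replicate 1 at 4 °C) and the neutrophil and mast cell median 1.71 (without NCD replicate 2 at 4 °C).

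Averaged over the diets, 1019 genes rose in the cold (6.09% of those tested, adjusted p under 0.05 and log2 change over 0.5) and 1104 fell (6.60%). Against 45.8% of all genes, 580 of those that rose (56.9%) had a positive interaction, with a median of 0.06. Of those that fell, 437 (39.6%) had a positive interaction, with a median of -0.11. The average cold change and the interaction come from the same libraries, and these shares are a description.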

How the data were processed

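RNA-seq was measured in 12 iBAT libraries. The authors trimmed reads with cutadapt and quantified transcripts with salmon, and deposited estimated counts per gene as whole numbers; strand use was not given in the sources used here. Values here were computed from that table with R 4.3.3. Of 61210 genes, 16737 passed filterByExpr (minimum count 10) and were fitted with TMM and the quasi-likelihood test of edgeR 4.0.16 on the 4 groups, the interaction being the contrast of contrasts, with Benjamini-Hochberg adjustment. CPM use TMM library sizes. DESeq2 1.42.0 and limma 3.58.1 served as alternatives, of 23 in all. The fit was tested on simulated data. Libraries held 15136861 to 46740702 counts, and a count of 0 allows up to 3 counts (counting error only). Room temperature was labelled rt, and 22 °C is from the column names.

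By the naming rule, genes were the 10 with the smallest interaction p in each direction (mean of at least 1 CPM), the 3 such noncoding genes in each direction, up to 4 per list and 10 genes the study names. Other list members were named after their values were seen. Some genes that this rule selects are not reported here. The members and lists were chosen with earlier results of these data known. Replicate numbers were treated as pairs where stated: deviations of same-numbered libraries from their group means correlated at 0.219, 0.456 and 0.281 on NCD and 0.155, 0.217 and 0.386 on HFD. Promoter windows were RefSeq's for GRCm38.p6, matched by symbol for 10391 of 13186 coding genes, and motifs were sought on both strands.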

Additional observations from a re-analysis of the deposited data

Results flagged for a closer look

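Of the named genes reported here, 30 had a cold change of one sign in all 3 replicate numbers on NCD and of the opposite sign in all 3 on HFD. Of all genes tested, 1.13% were lower in the cold on NCD and higher on HFD in this way, and 1.34% the reverse. The genes were chosen by the interaction p or from the lists, and no label pairs the libraries by replicate number, so this count is a description. Their interactions did not pass the adjusted test in edgeR (adjusted p from 0.160 to 0.817). Lower in the cold on NCD and higher on HFD were Retn (1.47), H2-T22 (1.21), Kcng4 (2.08), Lgals3 (2.99), Dnmt3l (3.02), Serpina3n (3.59), QNCMUSG00058145 (1.79), Fads1 (1.07), Psat1 (3.55), Mmp3 (2.17), Ube2c (1.404), Pmp22 (0.90) and Ncam1 (0.97), given with their interaction in log2. Higher in the cold on NCD and lower on HFD were 2310069B03Rik (-2.12), Lncbate1 (-0.86), Acot11 (-1.18), S100b (-1.06), Adcy10 (-1.94), Adra1a (-0.38), Gpd1 (-1.21), Ces1d (-1.06), Etfdh (-0.797), Etfa (-0.74), Eno1 (-0.95), Bcat2 (-0.65), Sucla2 (-0.65), Mrps25 (-0.53), Mrpl24 (-0.32), Timm21 (-0.55) and Cox7a1 (-0.598).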

How the results depend on the processing

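The count of genes past an adjusted p of 0.05 was 0 in edgeR's quasi-likelihood test, 64 in DESeq2, 1 with robust dispersion, 27 with no filter on low counts, 10 with the skeletal muscle score as a term, 1 with a replicate block shared by all groups and 2 with a replicate block within diet (Atp4b and Slc2a5). It ran from 0 to 22 when single libraries were left out, with 22 without HFD replicate 2 at 4 °C and 3 without NCD replicate 2 at 4 °C. At an unadjusted p under 0.05 there were 1091 genes, 1698 with no filter and 647 in batch 1 alone, and 827 (without HFD replicate 3 at 4 °C) to 1574 (without HFD replicate 2 at 4 °C) when single libraries were left out. The cause of these differences was not tested. Of 180 named genes, 166 had one sign under all 23 alternatives. The sign turned for Tnc (-0.54), Notch3 (-0.0295) and Cd79b (-0.67) in batch 1 alone, and for Ms4a1 with limma voom (0.19) and with a replicate block within diet (0.0014). Leaving out single libraries turned the sign of Atp2a1 (-2.54 to 0.59), Cd79b (-0.29 to 0.46), Cidea (-0.0222 to 0.242), Dio2 (-0.398 to 0.0868), Elovl3 (-0.199 to 0.335), Flt1 (-0.208 to 0.0836), Lep (-1.33 to 1.13), Ms4a1 (-0.58 to 0.47), Neb (-3.16 to 0.87), Npas2 (-0.76 to 4.09), Tie1 (-0.0084 to 0.23) and Ttn (-3.87 to 0.64). With 3 libraries a group, of unstated pooling, differences of the size seen in most lists could not be resolved for single genes.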

Other observations

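Promoter windows of other lists were searched with the same letters. The heat shock element GAANNTTC stood in 40.7% of the promoters of heat shock and chaperone genes against 7.09% of all coding genes tested, and the median interaction of that list was -0.22 with 1 member, Hspb1 (-1.13), at an unadjusted p under 0.05. In circadian genes, of which none had an unadjusted p under 0.05, the E-box CACGTG stood in 5 of 17 promoters (29.4%) against 11.5% of all. The D-box TTATGNAA stood in 2 of these 17 (11.8%) against 2.58% of all. It was not particular to circadian genes, and stood in 3 of 22 promoters of batokines and adipokines (13.6%).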
